A study of Mus musculus with 9 samples.

Results

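Fibroblasts make growth factors that act on neighbouring epithelial cells, and 7 such genes are described here: the ligands Fgf2, Fgf7, Fgf10 and Hgf and the receptors Fgfr1, Fgfr2 and Met. They are the rows with these symbols among the 56691 genes of the deposited table, a selection made with earlier results of these data known, and all 7 were among the 14151 genes with enough counts to be tested. The cells were NIH/3T3, an established mouse embryonic fibroblast line labelled wild type in every group. There were 3 groups of 3 libraries: control cells, whose treatment label is blank, cells given UVA at 10 J/cm2, and cells given UVA at the same dose together with α-arbutin, a glycosylated hydroquinone (called co-treated cells below). Neither the dose of α-arbutin nor its order relative to UVA nor the time to harvest is stated by the labels. The study asked whether α-arbutin limits photodamage. All results come from a single cell line in culture with no epithelial partner cells, so the measurements are of RNA in the fibroblasts alone.

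Fibroblast growth factors bind receptor tyrosine kinases of the FGFR family together with heparan sulphate chains on the cell surface, and the occupied receptor signals through adaptor proteins and the MAP kinase cascade. In skin, dermal fibroblasts secrete FGF7 (keratinocyte growth factor) and FGF10, which act mainly on the splice form of FGFR2 that epithelial cells make, and HGF (hepatocyte growth factor, or scatter factor), which acts on MET of keratinocytes and melanocytes. FGF2 (basic FGF) is a mitogen of fibroblasts themselves, and FGFR1 is the main FGF receptor of mesenchymal cells.

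The windows of 250 bases upstream of the annotated start site are shown for Fgf7 and Hgf, whose RNA fell together after UVA, and for Fgf10, a close relative of Fgf7 whose RNA did not pass the test. They are from RefSeq's promoter table on GRCm38.p6, read 5′ to 3′ on the gene's strand, and none overlaps an annotated exon. Capitals mark matches to the motifs searched.
Fgf7, chr2:126034408-126034657, plus strand: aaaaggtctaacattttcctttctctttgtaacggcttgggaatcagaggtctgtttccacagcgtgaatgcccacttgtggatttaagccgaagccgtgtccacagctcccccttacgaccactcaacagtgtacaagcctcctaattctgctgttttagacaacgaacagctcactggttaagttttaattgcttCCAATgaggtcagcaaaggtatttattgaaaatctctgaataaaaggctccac
Hgf, chr5:16553245-16553494, plus strand: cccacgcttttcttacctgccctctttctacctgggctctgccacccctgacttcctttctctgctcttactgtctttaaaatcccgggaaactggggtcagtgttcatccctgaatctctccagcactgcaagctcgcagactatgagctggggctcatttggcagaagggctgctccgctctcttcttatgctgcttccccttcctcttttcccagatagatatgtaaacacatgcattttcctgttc
Fgf10, chr13:118714449-118714698, plus strand: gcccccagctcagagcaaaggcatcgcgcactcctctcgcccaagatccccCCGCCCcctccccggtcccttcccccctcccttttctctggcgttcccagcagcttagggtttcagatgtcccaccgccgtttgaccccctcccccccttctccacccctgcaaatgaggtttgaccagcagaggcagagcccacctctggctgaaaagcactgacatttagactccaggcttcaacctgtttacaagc

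The motifs, searched on both strands, were the TATA box (TATAAA), the CCAAT box (CCAAT), the GC box (GGGCGG), AP-1 (TGANTCA), an E-box (CACGTG) and the core of the antioxidant response element (TGANNNNGC). An AP-1 match can share bases with a match to the last of these. The Fgf7 window held a CCAAT box from base -53 to -49, counted back from the start site, and 33.8% of the 32851 windows in the table held this motif. The Fgf10 window held a GC box from base -199 to -194 on the minus strand, as 32.7% of windows did for either strand. No match was found in the Hgf window shown, which says only that these letters are not in it. The G and C content of the 3 windows was 43.6% for Fgf7, 50.8% for Hgf and 61.2% for Fgf10, against a median of 52.4% over all windows. Fgf7 and Hgf shared no searched motif in the windows shown. Another Hgf window, which overlaps an Hgf exon and is not shown, held no match either. A part of these motifs in the changes was not tested. Windows of 6 of the 7 genes were matched, and Fgfr1 was not. Those of Fgf2 and Met overlap an exon of the gene and are not shown. The Fgf2 window held a GC box and an antioxidant response element core, the latter found in 35.2% of all windows. The Met window held these and also AP-1 and E-box matches, found in 6.75% and 6.02% of all windows. The Fgfr2 window held no match.

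Total counts per library, in units of 1e6, were 16.3 to 20.86, and 21026 to 21815 genes had at least 1 count. On the first principal component, which held 38.7% of the variance, the control libraries lay between -29.4 and -28.5 and the other 6 between 8.55 and 20.7. The sum of 11 fibroblast markers was 12664 to 13019 counts per 1e6 counts (CPM) over the control libraries, 9416 to 9665 CPM over the UVA libraries and 9096 to 9649 CPM over the co-treated ones, and 7 of the 10 tested markers fell and 2 rose in UVA against control. The sum of 8 epithelial markers was 1.57 to 4.59 CPM over all libraries, with Epcam, Krt5 and Krt19 at 0 in all 9. The sums were 5.12 to 7.41 CPM for 7 endothelial markers and 6.25 to 9.99 CPM for 7 immune markers, and of these Cd3e was at 0 in all 9.

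Levels were compared between genes on the FPKM scale, which divides the count by exonic length and library total. In control cells Fgf7 stood highest, at 83.5 ± 3.21 FPKM (SD, n = 3), above 96.7% of tested genes. Next came Met at 22.2 ± 1.03 FPKM and Fgfr1 at 19.7 ± 0.518 FPKM, followed by Fgf10 at 7.87 ± 0.896 FPKM and Hgf at 6.89 ± 0.486 FPKM. Fgf2 stood at 1.85 ± 0.0551 FPKM and Fgfr2 lowest at 0.333 ± 0.0737 FPKM, above 8.15% of tested genes. The order was the same in all 3 groups. Fgf10 and Hgf overlapped in their control libraries, and no other neighbours in the order overlapped within any group. The cells thus held RNA of a receptor for FGF2, Fgfr1, and of both HGF and its receptor, whereas Fgfr2, the gene whose epithelial splice form binds FGF7 and FGF10, had 46 to 84 counts per library. Gene counts do not tell the epithelial from the mesenchymal splice form of Fgfr1 or Fgfr2.

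**Figure D1:**
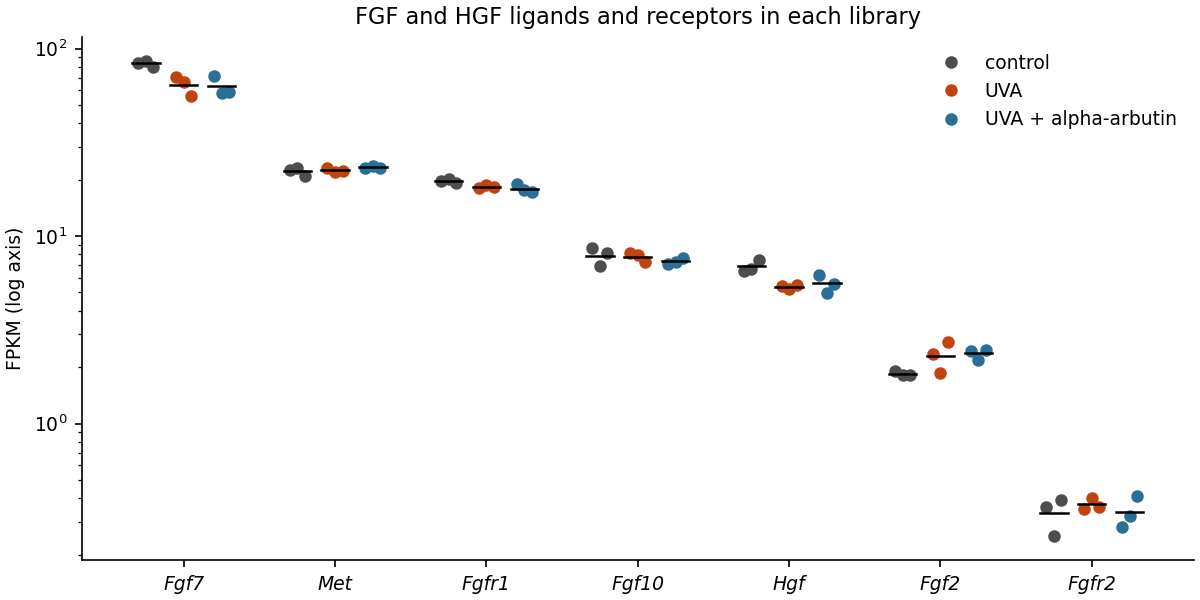
Deposited FPKM (log axis) of the 7 genes in each library, coloured by group; points are libraries and bars are means of 3. Fgf7 lies highest and Fgfr2 lowest in all groups, and the control points of Fgf7 and Hgf lie above all their UVA and co-treated points.

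The first comparison, UVA against control, asks what the irradiation did. Of the 7 genes, 3 passed edgeR's quasi-likelihood test at an adjusted p below 0.05: Fgf7 and Hgf fell and Fgf2 rose. Of all tested genes, 29.3% passed in this comparison, 14.7% higher and 14.6% lower. The median log2 fold change of the 7 genes was -0.00, against 0.00 over all tested genes. The labels do not say whether libraries came from separate cultures, so the p-values measure the spread between these libraries, which may be technical. In bulk RNA, fewer cells making a transcript and less of it per cell cannot be told apart. The fall of the fibroblast markers given above ran alongside these changes, and its part in them was not tested.

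Fgf7 (ENSMUSG00000027208; mm39 chromosome 2, bases 125876578 to 125933105, plus strand) was listed at 84.2, 86.34 and 80.03 FPKM in the control libraries. It was at 70.54, 66.36 and 55.89 FPKM after UVA, and at 71.66, 57.95 and 58.88 FPKM in co-treated cells. Every control library was higher than every irradiated one, and the irradiated groups overlapped each other. Against control, Fgf7 RNA fell by 0.36 ± 0.07 on the log2 scale after UVA (fit SE, 95% interval -0.50 to -0.23, adjusted p = 0.000103), which is 0.778 times the control level. Its mean TMM-scaled level went from 270.1 ± 9.69 to 210.1 ± 25.3 CPM (SD, n = 3). As the most abundant of the ligands, it kept a level above 95.3% of tested genes after UVA.

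Hgf (ENSMUSG00000028864; mm39 chromosome 5, bases 16758493 to 16825150, plus strand), the MET ligand, was listed at 6.53, 6.69 and 7.44 FPKM in control libraries. It was at 5.39, 5.23 and 5.47 FPKM after UVA and at 6.22, 4.98 and 5.55 FPKM in co-treated cells. Again all control libraries were above all others, with co-treated library 1 nearest to them. After UVA, Hgf RNA fell by 0.35 ± 0.07 log2 units (95% interval -0.50 to -0.20, adjusted p = 0.000498), from 49.3 ± 3.60 to 38.8 ± 0.872 CPM (SD, n = 3). That is 0.786 times the control level.

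Fgf2 (ENSMUSG00000037225; mm39 chromosome 3, bases 37402495 to 37464257, plus strand), the mitogen of fibroblasts, was listed at 1.91, 1.81 and 1.82 FPKM in control cells. It was at 2.35, 1.85 and 2.71 FPKM after UVA and at 2.45, 2.17 and 2.48 FPKM in co-treated cells. UVA library 2 lay among the control libraries, so these groups overlapped, whereas all co-treated libraries were above all controls. After UVA, Fgf2 RNA rose by 0.34 ± 0.11 on the log2 scale (95% interval 0.11 to 0.58, adjusted p = 0.023), from 12.5 ± 0.374 to 15.7 ± 2.89 CPM (SD, n = 3). The call did not hold without control library 2 or 3 or UVA library 1 or 3 (adjusted p = 0.0707, 0.0731, 0.0577 and 0.219). Without UVA library 3 the log2 fold change was 0.21, and DESeq2 gave an adjusted p = 0.0613. Nudt6, which is read from the opposite strand and overlaps the end of Fgf2 over 5199 bases of the gene interval, had 262 counts in all libraries together and a log2 fold change of 0.01 ± 0.30 (adjusted p = 0.978).

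Fgf10 (ENSMUSG00000021732; mm39 chromosome 13, bases 118806327 to 118928651, plus strand), which shares the epithelial receptor of FGF7, was listed at 8.62, 6.88 and 8.12 FPKM in control cells. It was at 8.09, 7.92 and 7.3 FPKM after UVA and at 7.06, 7.25 and 7.65 FPKM in co-treated cells. The lowest and the highest of the 9 values were both control libraries. The log2 fold change after UVA was -0.00 ± 0.08 (95% interval -0.16 to 0.15, adjusted p = 0.971), so this interval leaves out a fall of the size fitted for Fgf7.

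Among the receptors, none passed the test after UVA. Fgfr1 (ENSMUSG00000031565; mm39 chromosome 8, bases 26003670 to 26065734, plus strand), the mesenchymal FGF receptor, was listed at 19.77, 20.12 and 19.1 FPKM in control libraries, 18.04, 18.7 and 18.34 FPKM after UVA and 18.89, 17.64 and 17.21 FPKM in co-treated libraries. All controls were above all other libraries, by a small margin. The log2 fold change after UVA was -0.08 ± 0.04 (95% interval -0.17 to 0.00, adjusted p = 0.153). Fgf7, Hgf and Fgfr1 were the 3 of 7 genes whose control and UVA groups did not overlap, and 42.0% of all tested genes had groups that did not overlap.

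Met (ENSMUSG00000009376; mm39 chromosome 6, bases 17463799 to 17573979, plus strand), the HGF receptor, was listed at 22.43, 23.02 and 21.02 FPKM in control libraries, 22.97, 21.92 and 22.28 FPKM after UVA and 23.05, 23.57 and 23.11 FPKM in co-treated libraries. The control and UVA groups overlapped, and the co-treated libraries were the 3 highest of the 9 in FPKM. The log2 fold change after UVA was 0.03 ± 0.04 (95% interval -0.06 to 0.12, adjusted p = 0.626). Of the 7 genes, Met and Fgfr1 had the narrowest intervals.

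Fgfr2 (ENSMUSG00000030849, chromosome 7, minus strand), the receptor of FGF7 and FGF10 in epithelium, had 64, 46 and 84 counts in control cells, 65, 68 and 74 after UVA and 47, 57 and 77 in co-treated libraries. The groups overlapped throughout. The log2 fold change after UVA was 0.15 ± 0.21 (adjusted p = 0.645). Its 95% interval, -0.27 to 0.57, leaves out falls of the size fitted for Fgf7 and Hgf but holds a rise of that size. As deposited, the gene's interval on mm39 runs over 2960899 bases, from 129764181 to 132725079. It overlaps 71 other genes, 35 of them on the opposite strand. Whether they share exonic bases with Fgfr2 was not measured, so its few counts are uncertain. The counting is not stated to use strand, and reads of a gene and an antisense partner cannot then be told apart. Beside Nudt6, genes on the opposite strand at Fgf7 (Fam227b, 31 counts over the 9 libraries), Fgf10 (Gm16263, 52 counts) and Fgfr1 (Gm16159, 36 counts) had few counts. At Hgf the overlapping genes were on its own strand, Gm43489 (94 counts) and Gm42975 (9 counts). Gm43489 had a log2 fold change after UVA of 0.45 ± 0.46 (adjusted p = 0.510). Met overlapped no other gene.

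**Figure D2:**
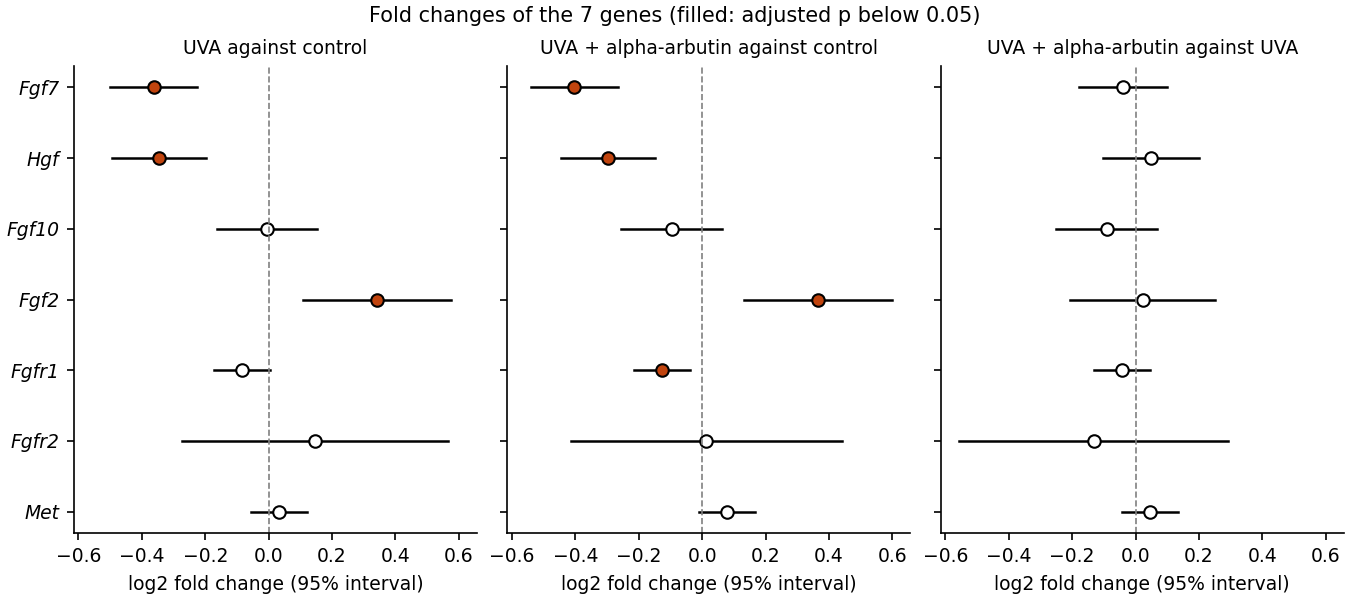
Log2 fold change (horizontal axis) with its 95% interval for each of the 7 genes in the 3 comparisons; filled points passed edgeR's quasi-likelihood test at an adjusted p below 0.05. Fgf7, Hgf and Fgf2 are filled in both comparisons with control, Fgfr1 in the second of them, and none where co-treated cells are set against UVA.

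The second comparison, co-treated against UVA, asks whether α-arbutin moved these genes in irradiated cells. None of the 7 passed the edgeR test, the smallest adjusted p being 0.880 (Fgf10), and none had an unadjusted p below 0.05. Of all tested genes, 0.0353% passed, which is 5 genes, and 6.76% had an unadjusted p below 0.05. On the TMM-scaled CPM scale no member had groups that did not overlap, as 10.8% of all tested genes did. For Met this depends on the scale: its co-treated libraries were all above its UVA libraries in FPKM, whereas in CPM UVA library 1 (178.1) was above co-treated library 1 (177.1). DESeq2 and limma also called 0 of the members. The median log2 fold change of the 7 was -0.04, against 0.00 over all tested genes.

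For Fgf7 the log2 fold change of co-treated against UVA was -0.04 ± 0.07 (95% interval -0.18 to 0.10). A return to the control level would need 0.36, which is outside the interval. For Hgf it was 0.05 ± 0.07 (95% interval -0.10 to 0.20), against 0.35 for a full return. The Fgf2 value was 0.02 ± 0.11 (95% interval -0.21 to 0.25), against -0.34 for a full return. These 3 genes were the ones that passed in UVA against control. For the other genes the values were -0.09 ± 0.08 for Fgf10, -0.04 ± 0.04 for Fgfr1, -0.13 ± 0.21 for Fgfr2 and 0.05 ± 0.04 for Met. Because the UVA libraries enter both comparisons, a chance deviation in them would move both values of a gene in opposite directions.

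The third comparison, co-treated against control, shares its control libraries with the first. Of the 7 genes, 4 passed, 3 lower and 1 higher, whereas 25.8% of all tested genes passed, 13.0% higher and 12.9% lower. The log2 fold change was -0.40 ± 0.07 for Fgf7 (adjusted p = 3.23e-05) and -0.30 ± 0.07 for Hgf (adjusted p = 0.00262). Fgf2 rose by 0.36 ± 0.11 (adjusted p = 0.018), and its call did not hold without control library 2 or 3 or co-treated library 3 (adjusted p = 0.0587, 0.0623 and 0.0733). Fgfr1 fell by 0.13 ± 0.04 (adjusted p = 0.0309), to 0.916 times the control level, and this call did not hold without control library 1 or 2 or co-treated library 2 or 3 (adjusted p from 0.0876 to 0.145). Whether Fgfr1 differed between UVA and co-treated cells is answered by the second comparison, in which it did not pass (adjusted p = 0.897). The values were 0.08 ± 0.04 for Met (adjusted p = 0.194), -0.10 ± 0.08 for Fgf10 (adjusted p = 0.403) and 0.01 ± 0.21 for Fgfr2 (adjusted p = 0.974). Groups did not overlap for 5 of 7 members, the called 4 and Met, against 39.7% of all tested genes.

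Ratios between 2 members within a library do not depend on how libraries are scaled. Per exonic base, Fgf7 reads outnumbered Fgf10 reads by 10.7 ± 1.58 times in control cells, 8.25 ± 0.544 times after UVA and 8.61 ± 1.34 times with α-arbutin added (SD, n = 3). The ratio of Fgf7 to Hgf, the pair that fell, was 12.2 ± 1.23, 12.0 ± 1.56 and 11.3 ± 0.562 in the same order. For Met to Hgf, receptor to ligand, it was 3.23 ± 0.353, 4.18 ± 0.0982 and 4.20 ± 0.514. All UVA and co-treated libraries had a higher ratio of Met to Hgf than any control library. The ratio of Fgf7 to Fgf2 was 45.2 ± 2.22, 28.8 ± 7.63 and 26.6 ± 2.77, also without overlap between control and either other group, and that of Fgfr1 to Fgfr2 was 61.2 ± 16.5, 50.0 ± 3.22 and 55.1 ± 13.1. Over 5 ratios and 3 comparisons, 15 exact two-sided permutation tests were run, and 5 reached p = 0.1, the smallest p that 3 libraries against 3 allow (Benjamini-Hochberg adjusted p = 0.3). None can therefore be called.

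**Figure D3:**
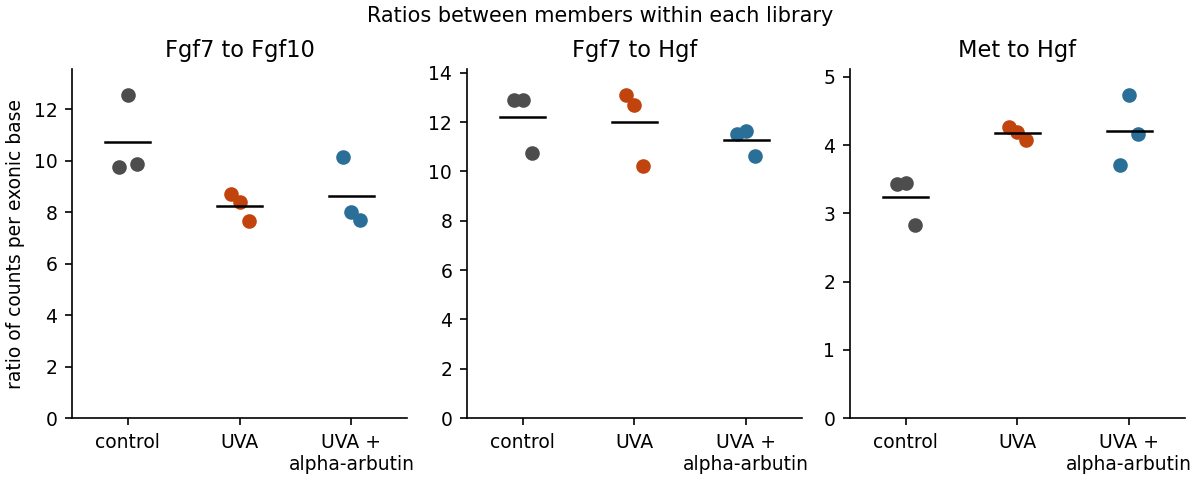
Ratios of counts per exonic base between pairs of members in each library (vertical axes from 0; points are libraries and bars are means of 3). Control libraries lie below all others for Met to Hgf, while the groups overlap for Fgf7 to Hgf.

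Genes whose levels followed a member most closely were found by the root mean square difference of log2 CPM, each gene centred on its mean, over the 9 libraries. For Fgf7 they were Sh3bp5 (0.0426), Naf1 (0.0497) and Ndrg1 (0.0519), where the median over all tested genes was 0.254. For Hgf they were Tmem87b (0.0521), Foxn3 (0.0555) and Tjp1 (0.0581), against a median of 0.217. For Fgf2 they were Shld2 (0.0704), Agbl3 (0.0761) and Kdm7a (0.0778), against 0.244. For Fgfr1 they were Src, H2az1 and Tbl1xr1 (0.0270 to 0.0291), and for Met Anxa4, Prpf4b and Acp1 (0.0224 to 0.0274). For Fgf10 they were Rab9, Pdpn and Neurl4 (0.0419 to 0.0588), and for Fgfr2 Zfp119b, Gorasp1 and Bmper (0.106 to 0.118). A member that varies little is near many genes that vary little: a gene constant over all libraries would stand at 0.0481 from Met and 0.0646 from Fgfr1, but at 0.219 from Fgf7.

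The rest of the pathway was read from 8 gene lists, with UVA against control first. Among the genes named, Mst1, Sulf2, Fosl1, Braf and Plcg1 overlap a gene on the opposite strand with counts above 10% of their own. The overlap is of gene intervals, and shared exonic bases were not measured. Their values are uncertain where the counting ignored strand. Of 19 other FGF ligand genes, 10 had no count in any library and 2, Fgf11 and Fgf14, could be tested. Neither passed, with log2 fold changes of -0.86 ± 0.36 for Fgf11 (adjusted p = 0.0722) and 0.26 for Fgf14 (adjusted p = 0.171). Both encode FGF-related proteins that stay inside the cell, so Fgf7, Fgf10 and Fgf2 were the secreted FGF genes with enough counts to test. Of 7 genes for other receptors, co-receptors and FGF-binding proteins, the 2 tested, Fgfrl1 (log2 fold change -0.07) and Fgfbp3 (-0.04), did not pass.

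Around HGF and MET, 6 of 13 listed genes were tested, and 2 rose and 2 fell, with a median of -0.13. Over all tested genes, 14.7% were called higher and 14.6% lower. Cd44, a hyaluronan receptor and co-receptor of MET, rose by 0.39 on the log2 scale, from 314.6 to 412.4 CPM. Mst1, which encodes the HGF-like ligand of the MET relative RON, rose by 0.93 ± 0.23, from 2.52 to 4.77 CPM, a call lost with limma on log2(FPKM + 0.1) (adjusted p = 0.0609). Rnf123, whose interval overlaps that of Mst1 on the opposite strand, had 865.2% of the counts of Mst1 over the whole gene. How many of these lie in shared bases was not measured, so the rise of Mst1 is uncertain. Plat, tissue plasminogen activator, fell by 0.49 ± 0.10, and Plxnb2, a plexin, fell by 0.16. Hgfac, which encodes an activator of pro-HGF, was not tested for want of counts.

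Heparan sulphate proteoglycans hold FGFs and HGF at the cell surface. Of 11 listed, 8 were tested, and 1 rose and 4 fell, with a median of -0.13, where 14.7% of all tested genes were called higher and 14.6% lower. Hspg2 (perlecan) fell by 0.49 ± 0.05, from 812.1 to 577.5 CPM, Sdc1 (syndecan-1) fell by 0.29, Sdc4 (syndecan-4) fell by 0.20 and Agrn (agrin) fell by 0.15. The Agrn call did not hold without control library 1 or 3 or UVA library 1 or 2 (adjusted p = 0.0503, 0.168, 0.0912 and 0.0888) or with limma. The member that rose, Sdc3 (0.26), falls outside the rule for named genes and is named after its value was seen. Of 13 genes for the making and editing of heparan sulphate, 10 were tested. Of these, 3 rose and 2 fell, against the same shares of all tested genes, with a median of -0.11. Glce, the C5-epimerase of the chain, fell by 0.62 ± 0.06, from 157.6 to 102.5 CPM, while Ndst2, an N-sulphotransferase, rose by 0.38 and Sulf2, an endosulphatase, rose by 0.36. Hs2st1, a 2-O-sulphotransferase, rose by 0.12, a call that did not hold without control library 2 or 3 or UVA library 1 (adjusted p = 0.0688, 0.169 and 0.122) or with total-count scaling, no filter or limma.

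Downstream of the receptors, all 21 listed adaptors and MAP kinase genes were tested, and 5 rose and 4 fell, with a median of 0.01. The shares over all tested genes were 14.7% higher and 14.6% lower. Those named by the rule all fell: Mapk3 (ERK1) by 0.33, Sos1 by 0.32, Braf by 0.31 and Plcg1 by 0.23 on the log2 scale. The 5 that rose, named after their values were seen, were Hras (0.27), Gab1 (0.27), Sos2 (0.19), Nras (0.17) and Map2k2 (0.15). Sos1 and Braf link the receptors to the MAP kinases.

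The feedback inhibitors and early targets of FGF and MET signalling mostly rose. Of 11 inhibitors, 10 were tested, and 6 rose and 1 fell, with a median of 0.35, where 14.7% of all tested genes were called higher and 14.6% lower. Dusp6, a phosphatase of ERK, ran from 78.1 to 83.6 CPM over the control libraries, from 141.2 to 174.7 CPM over the UVA libraries and from 134.2 to 148.7 CPM over the co-treated ones, and it rose by 0.95 ± 0.06 on the log2 scale after UVA. Dusp4 rose by 0.92 ± 0.05, Dusp5 by 0.84 ± 0.09 and Spry2, a Sprouty inhibitor of receptor signalling, by 0.46 ± 0.07. The inhibitor that fell was Spred3 (-0.43), named after its value was seen. All 10 early targets were tested, and 7 rose and 0 fell, against the same shares of all tested genes, with a median of 0.34. Ccnd1, the gene of cyclin D1, was at 371.5 to 380.9 CPM in control and 638.1 to 724.4 CPM in UVA libraries and rose by 0.83 ± 0.05. Etv4, a transcription factor induced by FGF signalling, rose by 0.78 ± 0.06, Ier3 by 0.65 ± 0.08 and Fosl1 by 0.35 ± 0.08. The point farthest to the right among the targets is Fos, named after its value was seen, with 17 counts in the control group and 52 in the UVA group (log2 fold change 1.61 ± 0.60). Medians of these lists stand beside 0.00 over all tested genes, and 80% of all tested genes lay between -0.42 and 0.36. These genes respond to many other inputs of the MAP kinase cascade, and the lists were chosen with earlier results of these data known.

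**Figure D4:**
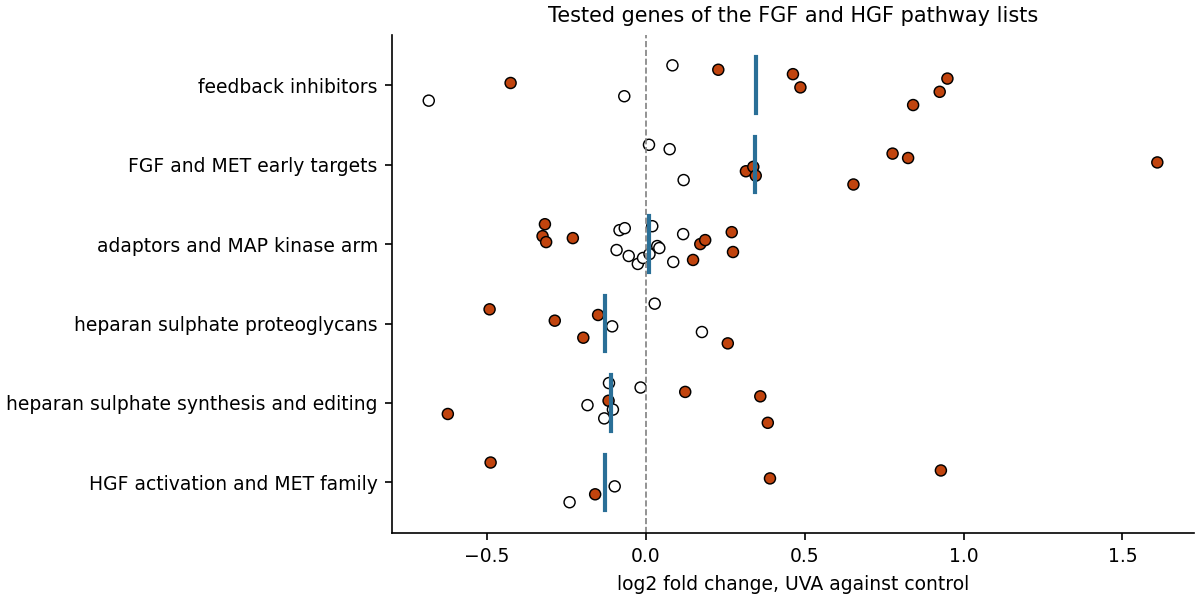
Log2 fold change of UVA against control (horizontal axis) for every tested gene of 6 pathway lists; points are genes, filled where the adjusted p was below 0.05, spread vertically for legibility, and blue bars are list medians. Most feedback inhibitors and early targets lie to the right of 0, with medians of 0.35 and 0.34, while the other lists lie on both sides.

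In co-treated against UVA cells, 0 of the 69 tested genes of the 8 lists passed edgeR's test, and 5 had an unadjusted p below 0.05, which is 7.25% of them and near the 6.76% of all tested genes. DESeq2 and limma called 0 of the genes named from the lists. Dusp6 stood at -0.13 ± 0.06 (adjusted p = 0.702), Ccnd1 at 0.01 ± 0.05 (adjusted p = 0.985), Hspg2 at 0.10 (adjusted p = 0.701) and Glce at 0.06 (adjusted p = 0.896). In co-treated against control, with shared control libraries, the shares over all tested genes were 13.0% higher and 12.9% lower. Of the 10 tested inhibitors and the 10 early targets, 6 of each rose and 0 fell. Of 8 proteoglycans 1 rose and 3 fell, of 10 heparan sulphate enzymes 2 rose and 3 fell, of 21 adaptors and MAP kinase genes 2 rose and 3 fell, and of 6 genes around HGF and MET 2 rose and 1 fell. Of the other FGF ligands, Fgf11 fell (log2 fold change -1.07, adjusted p = 0.0325), and this was lost without control library 1 or 3 or co-treated library 2 or 3 (adjusted p from 0.0753 to 0.162). Neither Fgfrl1 nor Fgfbp3 passed. Of 28 list genes that the rule names, 5 overlap a gene on the opposite strand with counts above 10% of their own: Mst1 (Rnf123), Sulf2 (Ncoa3), Fosl1 (Ccdc85b), Braf (Ndufb2) and Plcg1 (Zhx3). These are overlaps of gene intervals with whole-gene counts, and shared exonic bases were not measured. The counts of the named genes are uncertain where the counting ignored strand, and Rnf123 had 865.2% of the counts of Mst1.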

How the data were processed

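Per the file headers, the authors deposited raw counts and FPKM values, side by side for each library, with gene positions and exonic lengths. HISAT2 2.2.1, HTSeq 0.6.1 and the build mm39 appear in the submitters' processing notes, while the sources used here do not give the annotation release or the strandedness of the counting. Titles of the UVA samples call them mock, while their treatment label names UVA and its dose, which was followed. The deposited FPKM equalled the count divided by exonic size and library total within 0.01 for all 510219 values. The control columns carry the prefix NC, assigned because the other prefixes match the other titles.

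Counts were tested with edgeR 4.0.16 in R 4.3.3 (filterByExpr, TMM scaling, quasi-likelihood F-test, two-sided, a single model of the 3 groups over the 9 libraries), with Benjamini-Hochberg adjustment over all 14151 tested genes and a threshold of 0.05. The code was tested on simulated data. TMM factors were 0.992 to 1.007. Errors on log2 fold changes are the fit's SE, and intervals are 95%. Where only a few counts were compared, the interval is exact and covers counting error. Alternatives were DESeq2 1.42.0, limma 3.58.1 on log2(FPKM + 1) and log2(FPKM + 0.1) with a mean FPKM of at least 0.5, other scalings, no filter, only the groups compared, a replicate block and each library left out.

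The 7 genes and the lists were chosen with earlier results of these data known. Named genes are the 7, the 4 tested genes with the smallest p in UVA against control of each pathway list, and the 3 genes nearest each of the 7 by level pattern, without provisional symbols. Of 145 list genes, 144 were found by symbol, all but Spry3.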

Additional observations from a re-analysis of the deposited data

How the results depend on the processing

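Fgf7 and Hgf fell in both comparisons with control under all 17 alternatives: the log2 fold change of Fgf7 ran from -0.44 to -0.27 after UVA and from -0.51 to -0.35 in co-treated cells, and that of Hgf from -0.39 to -0.28 and from -0.38 to -0.22. Fgf2 passed in 10 of 17 alternatives in UVA against control (adjusted p 0.00195 to 0.219) and in 12 of 17 in co-treated against control (0.00709 to 0.104). Fgfr1 passed in 11 of 17 in co-treated against control (0.00736 to 0.145). In that comparison 4 members passed, but 2 with limma at either pseudocount, and 2 to 4 with each library left out, with 2 left without control library 2 or co-treated library 3. Fgfr2 did not reach the FPKM minimum of the limma fits and has no value there. In co-treated against UVA no member passed under any alternative, while the 5 genes called among all tested became 29 without a filter, 0 with limma at either pseudocount and 1 to 22 with each library left out (8 and 22 without UVA library 2 and 3, 1 and 2 without co-treated library 2 and 3). Same-numbered libraries deviated together weakly at most (9 pairs, correlation -0.00871 to 0.0756). Between UVA and co-treated libraries, the same-numbered pairs (0.0453, 0.0390 and 0.0756) stood above all unlike-numbered ones (-0.0706 to 0.0259). These values do not settle whether the numbers pair the libraries. With a replicate block 19 genes were called in co-treated against UVA, 4359 in UVA against control and 3930 in co-treated against control, and 0, 3 and 4 members. Among the genes named from the lists, calls in UVA against control were also lost for Hs2st1 with total-count scaling (adjusted p = 0.0570), no filter (0.0674) and limma at either pseudocount (0.121 and 0.119), for Agrn with limma (0.0906 and 0.0955) and for Mst1 with limma at the smaller pseudocount (0.0609). In co-treated against control they were lost for Fgf11 with DESeq2 (0.0856) and for Mst1 (0.0618 and 0.0761) and Ndst2 (0.0553 and 0.0645) with limma, and gained for Braf with RLE factors (0.0497), total-count scaling (0.0408), no filter (0.0394), only the groups compared (0.0251) and the replicate block (0.0360). Leaving out a library also ended the calls of Mst1 (control library 2 or co-treated library 3) and Ndst2 (control library 2) there. The cause of these differences was not tested. Fgfr2 had 46 to 84 counts per library, and its interval in the main fit of UVA against control was -0.27 to 0.57. This leaves out a fall of the size fitted for Fgf7 (-0.36) but not a rise of that size. The smallest change of Fgfr2 that could be detected was not computed.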

Other observations

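Some FGF and MET family genes had too few counts to be tested and are named here after their values were seen. Fgf21, a hormone-like FGF, had 13, 2 and 14 counts in the control libraries, 0, 0 and 1 after UVA and 1, 0 and 0 in co-treated cells. Its summed counts in control were 28.4 times those in UVA after scaling by library totals (95% counting interval 4.71 to 1161). Klb, the co-receptor of FGF21, had 5, 8 and 4 counts in control, 0, 0 and 1 in UVA and 3, 5 and 6 in co-treated libraries, a ratio of control to UVA of 16.7 (2.61 to 696.4). Mst1r, which encodes the receptor RON, had 2, 6 and 10 counts in control, 0, 1 and 1 in UVA and 0, 4 and 4 in co-treated libraries, a ratio of 8.82 (2.11 to 78.4). These intervals cover counting error only, not the spread between libraries, and the genes were picked from many untested ones.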
